A study of Mus musculus with 30 samples.

Results

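The mouse potassium channel gene family outside Kcnh7 was described across 3 sorted brain cell populations. Members were all genes whose symbol starts with Kcn, other than Kcnh7, Kcnj10 and Kcnq1ot1, with at least 50 counts summed over 30 libraries. This gave 82 genes of the 98 with a Kcn symbol and of 36528 gene identifiers in all. They were 67 pore-forming subunits, 12 auxiliary subunits or regulators and 3 non-coding genes. The 13 genes below the minimum included Kcnv2, with a sum of 37 counts, and Kcnj15, with 30. Just inside it lay Kcnj5, with 52, and Kcnj8, with 75.

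RNA was sequenced from neurons (NeuN+), astrocytes (Gfap+) and myeloid cells (Cd11b+) of mice aged 11.5 months. Each population came from PS2APP transgenic mice and from non-transgenic (non-Tg) littermates, with 5 libraries in each of the 6 groups. PS2APP mice carry human amyloid precursor protein and presenilin 2 transgenes, which in the published line are driven by the Thy1 and prion promoters, and they develop amyloid plaques. The labels do not tie libraries to animals, so tests measure the spread between these libraries, part of which may be technical. Replicate numbers were assigned for naming only and pair no libraries.

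Potassium channels let potassium leave or enter a cell and so set its resting potential, shape and end action potentials, and clear potassium from the space around neurons. Voltage-gated (Kcna to Kcnd, Kcnh, Kcnq), inward rectifier (Kcnj), tandem-pore (Kcnk) and calcium- or sodium-activated (Kcnma, Kcnn, Kcnt) families each form their own pores. In neurons they control firing, in astrocytes they carry the potassium conductance at rest, and in microglia they affect membrane potential, surveillance and inflammasome activation.

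Library totals lay between 2015535 and 6749681 counts. The members drew 24789 to 43283 of these counts in neuron libraries and 5601 to 14501 in astrocyte libraries. In myeloid libraries they drew 1354 to 5747, so low members are least precise there. Levels are deposited RPKM, which are per gene length and therefore comparable between genes, as mean ± SD over 5 libraries. The 12 microglial markers summed to 1394 ± 99.5 RPKM in non-Tg myeloid libraries, and the 12 astrocyte markers to 624 ± 104 in non-Tg astrocyte libraries. The 13 neuron markers summed to 186 ± 12.4 RPKM in non-Tg neuron libraries. These sums followed the sort labels. Each neuron marker was nevertheless present in the other sorts, at 6.43% to 78.9% of its neuron level in non-Tg astrocyte libraries (median 21.3%) and at 5.31% to 28.4% in myeloid libraries (median 8.92%). Of 81 members with a neuron level above 0, 23 lay above the highest of these percentages in astrocyte libraries and 20 in myeloid libraries. The part of neuronal RNA in the lower glial levels was not tested. On the first principal component of all genes, PS2APP neuron replicate 5, PS2APP astrocyte replicate 3 and PS2APP myeloid replicate 4 lay farthest out in their populations.

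The 4 windows shown here are the 250 bases before a transcript start listed in RefSeq (GRCm38.p6) for members that were highest in different populations. Kcnk13 and Kcnj2 were highest in myeloid cells, Kcnj16 in astrocytes and Kcnj6 in neurons. In non-Tg libraries, the Kcnj2 values of myeloid cells and neurons overlap. Kcnj16 and Kcnj2 lie on the same strand of chromosome 11 with 38.2 kb between them. Capitals mark GAGGAA, the purine-rich sequence bound by the myeloid factor PU.1, on either strand. Kcnk13 is at chr12:99964249-99964498 (plus strand), inside the span of the gene, which RefSeq begins upstream at 99963149. The other windows adjoin the ends of their genes' spans, with Kcnj2 at chr11:111065914-111066163 (plus strand), Kcnj16 at chr11:110967783-110968032 (plus strand, the first of 4 listed windows) and Kcnj6 at chr16:94997697-94997946 (minus strand).
Kcnk13: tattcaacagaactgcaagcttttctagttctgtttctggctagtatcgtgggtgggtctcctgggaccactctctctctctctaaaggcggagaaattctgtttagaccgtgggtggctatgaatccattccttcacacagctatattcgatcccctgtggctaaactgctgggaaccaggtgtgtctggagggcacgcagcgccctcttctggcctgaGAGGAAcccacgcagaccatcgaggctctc
Kcnj2: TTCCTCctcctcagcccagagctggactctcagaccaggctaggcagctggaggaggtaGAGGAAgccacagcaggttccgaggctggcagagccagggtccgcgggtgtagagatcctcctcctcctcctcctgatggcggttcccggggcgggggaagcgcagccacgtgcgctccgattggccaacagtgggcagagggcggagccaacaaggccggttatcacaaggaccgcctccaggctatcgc
Kcnj16: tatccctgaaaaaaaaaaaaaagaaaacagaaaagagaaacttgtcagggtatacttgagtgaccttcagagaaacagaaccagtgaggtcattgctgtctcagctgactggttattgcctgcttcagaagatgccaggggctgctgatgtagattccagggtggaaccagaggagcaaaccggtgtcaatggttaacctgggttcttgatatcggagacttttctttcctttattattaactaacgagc
Kcnj6: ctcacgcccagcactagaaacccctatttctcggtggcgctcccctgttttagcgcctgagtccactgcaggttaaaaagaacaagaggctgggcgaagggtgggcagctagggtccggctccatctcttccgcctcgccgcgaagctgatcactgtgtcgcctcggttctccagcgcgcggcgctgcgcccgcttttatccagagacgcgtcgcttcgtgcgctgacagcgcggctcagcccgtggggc
Read on both strands, GAGGAA stood once in the Kcnk13 window and at 2 places in the Kcnj2 window. It was in neither of the other 2 windows. Among all 32851 windows of this length, 23.3% held it. It was in 4 of 6 windows of members higher in myeloid cells, in 3 of 15 for astrocytes and in 8 of 42 for neurons. These windows came from 6, 7 and 29 genes, so some astrocyte and neuron genes count more than once. TATAAA, the core of the TATA box, was in 12.4% of all windows and in 3 of 82 windows of the members. The windows held 8, 14, 3 and 26 CpG pairs in the order printed, against a median of 6 in all windows. RefSeq windows were listed for 59 of the 82 genes, and a match describes letters, not a bound site.

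The first comparison asked which population carries which channel. Summed over the 67 pore-forming genes, non-Tg libraries held 185 ± 6.14 RPKM in neurons, 107 ± 5.43 in astrocytes and 38.5 ± 6.20 in myeloid cells. A member was called higher in a population when edgeR's quasi-likelihood test gave an adjusted p of at most 0.05 against each of the others in the 15 non-Tg libraries. Of 72 members tested, 44 were higher in neurons (61.1%, against 20.6% of all 17496 genes tested). Another 8 were higher in astrocytes (11.1%, against 13.6%) and 8 in myeloid cells (11.1%, against 21.5%). The other 12 were higher in no single population, and 10 of the 82 had too few counts to test. Taken pair by pair, 49 members were higher in neurons than in astrocytes and 10 lower (29.1% and 26.4% of all genes). Against myeloid cells, 59 were higher in neurons and 9 lower (36.8% and 33.2%). Astrocytes had 36 higher than myeloid cells and 10 lower (32.8% and 28.3%). In bulk libraries, a different mix of cells and a different amount of RNA per cell cannot be told apart. The sorted populations also differed in spin speed and RNA yield, per the labels' protocols, and this cannot be told apart from cell type. The same holds for the sample identifiers, since all 10 astrocyte libraries carry numbers of another series than the neuron and myeloid libraries. Whether that marks a batch is not stated.

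**Figure D1:**
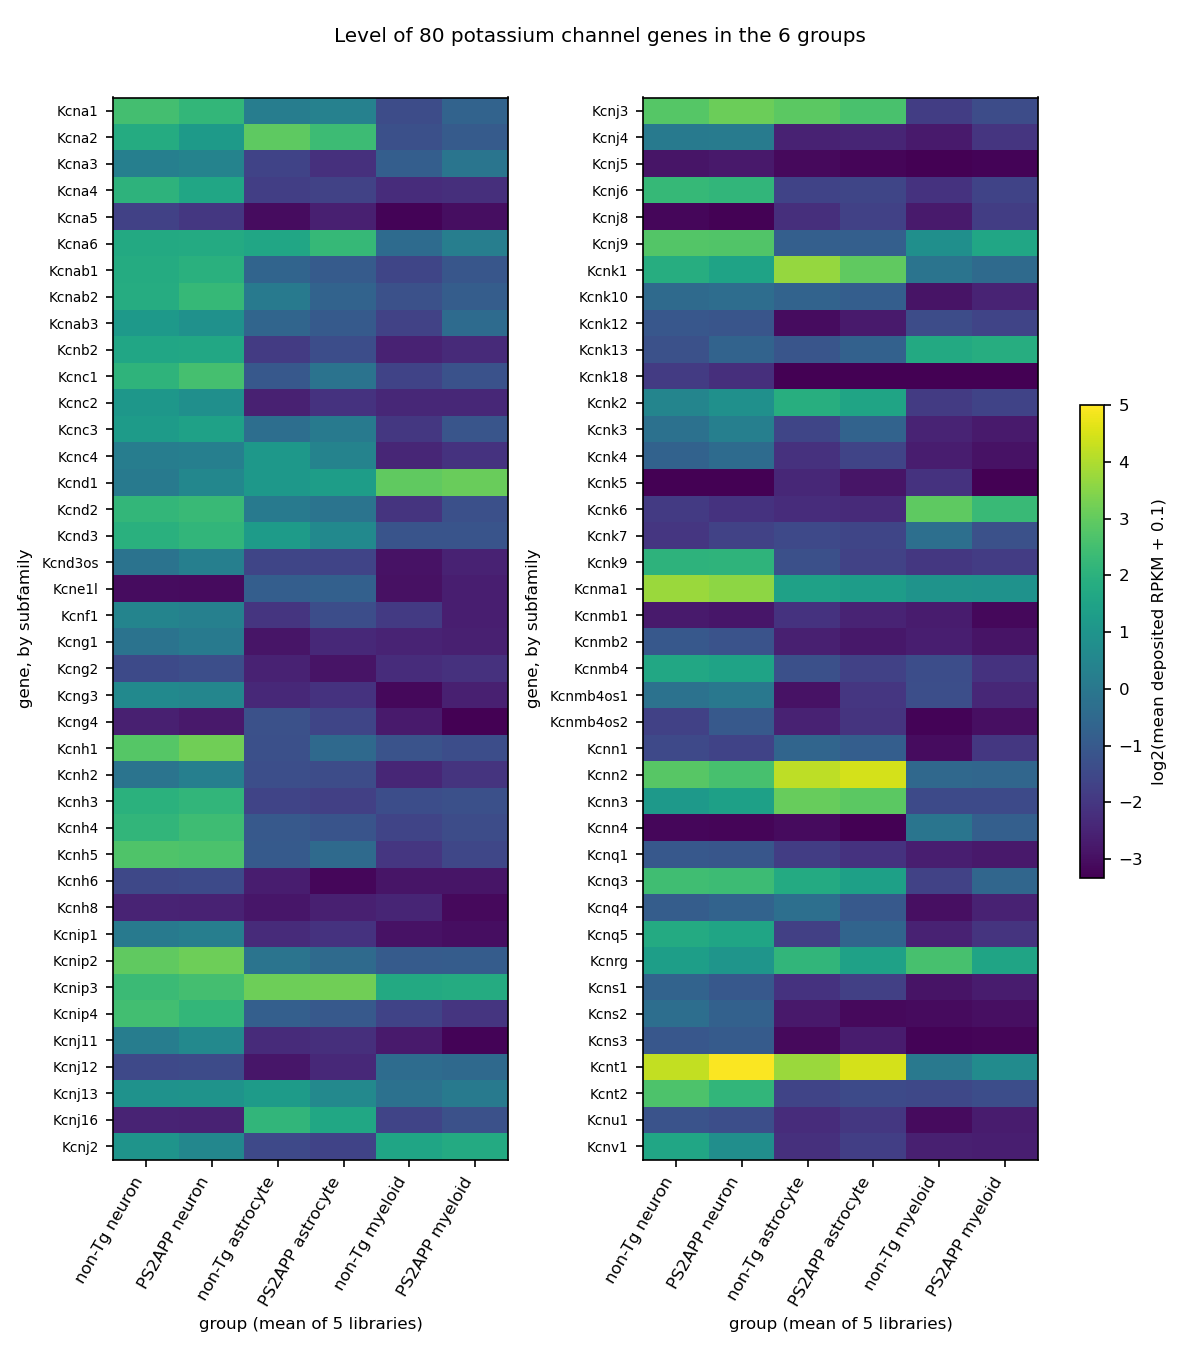
Mean level of 80 of the 82 genes (rows, ordered by subfamily) in the 6 groups (columns, 5 libraries each), as log2(mean deposited RPKM + 0.1); yellow is high. Most rows are brightest in the neuron columns, and Kcnj16, Kcnk1, Kcnn2 and Kcnn3 are brightest in astrocytes and Kcnd1, Kcnk6, Kcnk13 and Kcnn4 in myeloid cells.

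Among the 5 pore-forming genes of highest level in non-Tg neurons were Kcnt1, Kcnma1 and Kcnn2. Kcnt1, which encodes a sodium-activated channel, stood at 28.6, 17.3, 12.4, 14.5 and 21.1 RPKM in the 5 libraries. It was not called above astrocytes, whose libraries read 15.8, 13.5, 15.6, 10.7 and 11.1 (log2 difference 0.54 ± 0.25, SE, edgeR adjusted p = 0.0746). The 2 sets of values overlap. Kcnma1, the large-conductance calcium-activated channel, stood at 13.4 ± 1.34 RPKM in neurons, 2.61 ± 0.284 in astrocytes and 1.83 ± 0.466 in myeloid cells.

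By the smaller of its differences from the other populations, the 6 members ranked first in neurons were Kcns3, Kcnv1, Kcnt2, Kcna4, Kcnj6 and Kcnc2. Kcns3 and Kcnv1 encode silent subunits that modify other voltage-gated channels rather than form channels alone. Kcnv1 read 1.77, 3.08, 3.96, 3.05 and 2.76 RPKM in neurons and at most 0.194 in any non-Tg glial library. Kcns3 was low even in neurons, at 0.376 ± 0.0968, and 3 of 5 astrocyte and 4 of 5 myeloid libraries held no count, so its rank rests on the floor and no fold is given. Kcnt2, the other sodium-activated channel, read 5.15, 6.31, 6.58, 7.28 and 6.48 in neurons against at most 0.481 in non-Tg glial libraries. Its smaller difference was 4.57 ± 0.40 (log2, SE, edgeR adjusted p = 1.40e-09). In non-Tg astrocyte libraries, Kcnt1 thus stood at 70.9% of its neuron level and Kcnt2 at 3.52%. Neuron markers lay at 6.43% to 78.9% in those libraries (median 21.3%). The Kcnt1 share lies between the highest of them, Nefl, and the next, Map2 (51.8%). The part of neuronal RNA in the Kcnt1 value was not tested. Kcna4, an A-type channel of axons, stood at 4.05 ± 1.01 in neurons and 0.193 ± 0.0800 in astrocytes. Kcnj6, which G proteins open after inhibitory receptors are activated, read 3.90, 4.74, 5.42, 4.27 and 4.84, against at most 0.356 in non-Tg glial libraries. Kcnc2, a channel of fast-spiking interneurons, stood at 2.01 ± 0.478 in neurons, 0.0703 ± 0.0353 in astrocytes and 0.0891 ± 0.0593 in myeloid cells.

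By subfamily, all 3 Kcns genes and 6 of 7 Kcnh genes were called higher in neurons. The Kcnh genes, relatives of ether-a-go-go, summed to 22.6 ± 3.06 RPKM in neurons, 1.76 ± 0.636 in astrocytes and 1.21 ± 0.322 in myeloid cells. Their highest members in neurons were Kcnh1 (6.85 ± 1.43) and Kcnh5 (6.42 ± 0.590). Kcnh8, the exception, was at or below 0.0802 in all 3 non-Tg means. The Kcnn genes, which encode small- and intermediate-conductance calcium-activated channels, were the opposite case, with 2 called for astrocytes, 1 for myeloid cells and none for neurons. Kcnk, the tandem-pore family, was split, with 3 genes called for neurons, 2 for astrocytes and 3 for myeloid cells.

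Genes of the M-current, which restrains repetitive firing, differed in their level in astrocyte libraries. Kcnq5 stood at 3.30 ± 0.164 RPKM in neurons and 0.200 ± 0.150 in astrocytes. Kcnq3 stood at 5.40 ± 0.679 in neurons and 3.27 ± 0.345 in astrocytes. That astrocyte level was 60.7% of the neuron level. It lies between the shares of Nefl, the highest neuron marker in the astrocyte sort, and Map2, the next (51.8%). The part of neuronal RNA in the Kcnq3 value was not tested. The neuron excess of Kcnq3 over astrocytes was 0.76 ± 0.27 (log2, SE, edgeR adjusted p = 0.0205). It was not called without non-Tg neuron replicate 2 (adjusted p = 0.0543), without non-Tg astrocyte replicate 4 (0.0514) or in PS2APP libraries (0.0711).

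**Figure D2:**
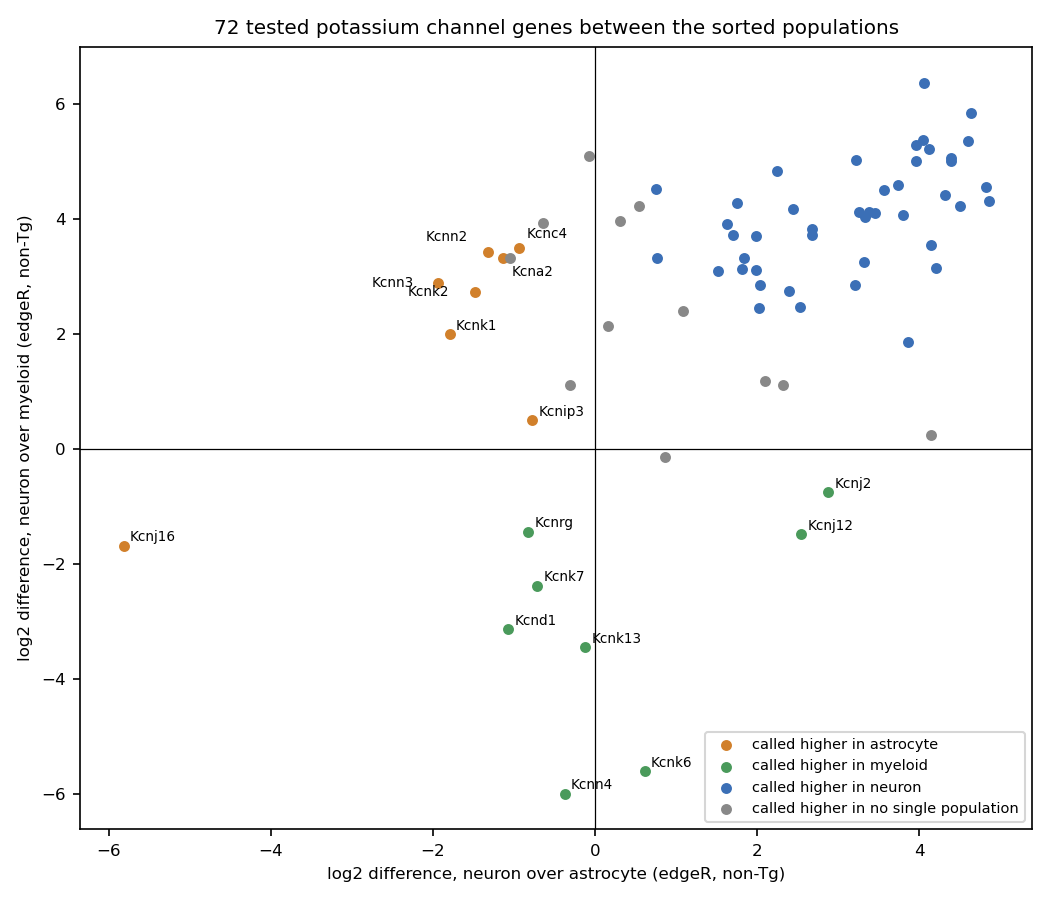
Each point is 1 of 72 tested genes, with its log2 difference of neurons over astrocytes on the x axis and of neurons over myeloid cells on the y axis, from edgeR in non-Tg libraries; colour gives the population in which it was called higher. The 44 neuron calls fill the upper right, Kcnj16 lies alone on the left at -5.81, and Kcnn4 and Kcnk6 lie lowest.

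The 8 members called higher in astrocytes were Kcnj16, Kcnn3, Kcnk1, Kcnk2, Kcnn2, Kcna2, Kcnc4 and the auxiliary gene Kcnip3. Kcnj16, an inward rectifier subunit that joins the glial subunit Kcnj10 and gives pH sensitivity, read 4.46, 3.22, 3.90, 3.37 and 6.82 RPKM in non-Tg astrocytes. No non-Tg neuron library passed 0.110 and no non-Tg myeloid library passed 0.595. Its smaller difference was 4.14 ± 0.49 (log2, SE, edgeR adjusted p = 1.91e-07). The other 7 differed by less, at 0.77 to 1.93.

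Kcnn2, a small-conductance calcium-activated channel, had the highest level of any pore-forming member in astrocytes. It read 13.2, 21.4, 16.6, 23.6 and 14.9 RPKM there, against 6.43 to 7.88 in neurons (log2 difference 1.32 ± 0.25, edgeR adjusted p = 1.03e-04). Kcnn3, of the same family, read 9.07, 9.52, 5.65, 8.51 and 8.91 against 1.94 to 2.22 in neurons. Neither gene overlapped between these groups, and in myeloid libraries Kcnn3 stood at 0.262 ± 0.126. The 4 Kcnn genes together made up 25.2% of the pore-forming RPKM of non-Tg astrocytes, 5.07% of that of neurons and 4.46% of that of myeloid cells. Kcnk1 and Kcnk2, tandem-pore channels described for the passive conductance of astrocytes, stood at 12.7 ± 2.52 and 3.63 ± 2.30 in astrocytes. Kcnk2 was raised by replicate 1, at 7.67, while the other 4 libraries lay between 2.18 and 3.24. Kcnk10, a relative of Kcnk2, stood at 0.640 ± 0.0627 in neurons and 0.530 ± 0.101 in astrocytes and was called for neither.

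Kcna2, an axonal delayed rectifier, was called higher in astrocytes. It read 5.73, 6.68, 9.03, 6.90 and 9.79 RPKM there and 2.34 to 4.83 in neurons (log2 difference 1.13 ± 0.20, edgeR adjusted p = 6.30e-05). Oligodendrocyte markers summed to 70.7 ± 11.8 RPKM in non-Tg astrocyte libraries and to 11.9 ± 2.34 in neuron libraries. Markers of oligodendrocyte precursors summed to 28.1 ± 5.97 and 1.78 ± 0.301. The part of those cells in the Kcna2 value was not tested. Kcnc4 (log2 difference 0.94 ± 0.34, edgeR adjusted p = 0.0231) was not called without non-Tg astrocyte replicate 1 or without non-Tg neuron replicate 3 or 4 (adjusted p = 0.0542 to 0.0622). Its RPKM was 2.82, 2.60, 0.702, 2.07 and 2.18 in astrocytes and 0.930 to 1.24 in neurons. Kcnip3, a calcium sensor of Kcnd channels, stood at 8.86 ± 1.59 in astrocytes, 5.04 ± 0.997 in neurons and 3.26 ± 0.592 in myeloid cells.

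The 8 members called higher in myeloid cells were Kcnn4, Kcnk6, Kcnk13, Kcnd1, Kcnk7, Kcnj12, Kcnj2 and Kcnrg. Kcnk6 (chromosome 7, 29221928 to 29232522), a tandem-pore channel tied to potassium efflux and the inflammasome, read 3.56, 11.6, 7.28, 8.50 and 6.59 RPKM in non-Tg myeloid libraries. No other non-Tg library passed 0.229 (smaller log2 difference 5.60 ± 0.39, edgeR adjusted p = 2.61e-11). Kcnk13, the tandem-pore channel that holds the resting potential of microglia, read 1.96, 3.0, 4.79, 2.66 and 3.58. The other non-Tg libraries lay between 0.146 and 0.565, below every myeloid library (smaller log2 difference 3.31 ± 0.37, edgeR adjusted p = 7.63e-08). Kcnd1, a subunit of the A-type family, had the highest level of any pore-forming member in myeloid cells, at 8.92, 7.11, 8.68, 6.63 and 7.54. It was higher than its relatives there, since Kcnd2 stood at 0.139 ± 0.0921 and Kcnd3 at 0.346 ± 0.163. In neurons the order was the reverse, with Kcnd2 at 4.41 ± 0.641, Kcnd3 at 3.77 ± 0.382 and Kcnd1 at 0.969 ± 0.336.

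Kcnn4, the intermediate-conductance calcium-activated channel of immune cells, read 0.581, 1.59, 1.07, 0.267 and 0.678 RPKM in non-Tg myeloid libraries. Neuron and astrocyte libraries held at most 2 counts each, with 3 of 5 at 0 in both non-Tg groups, so no fold is given (larger edgeR adjusted p = 3.22e-06). Kcnk7, whose product has not been shown to conduct, stood at 0.722 ± 0.467. Kcnj2, a strong inward rectifier, read 2.45, 3.17, 2.98, 3.81 and 2.07 in myeloid cells and 1.36, 2.00, 1.87, 2.31 and 1.95 in neurons, and these ranges overlap. Its excess over neurons was 0.74 ± 0.31 (log2, SE, edgeR adjusted p = 0.0379), and over astrocytes 3.62 ± 0.36. The Kcnj2 call held under 12 of 19 alternatives. Without non-Tg myeloid replicate 4 the excess over neurons was 0.60 (edgeR adjusted p = 0.105).

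Kcnj12, another inward rectifier, and Kcnrg, a soluble suppressor of voltage-gated channels, were less secure still. Kcnj12 read 0.278, 2.51, 0.101, 0.261 and 0.183 RPKM in myeloid libraries, with replicate 2 far above the others. Without that library its log2 difference over neurons was -0.19 (edgeR adjusted p = 0.731). Kcnrg stood at 5.91 ± 1.91 in myeloid cells and 4.39 ± 1.23 in astrocytes, and its call held under 3 of 19 alternatives. Without non-Tg myeloid replicate 2, or without non-Tg neuron replicate 1, 2 or 5, the count of 8 was 5, with Kcnj12, Kcnj2 and Kcnrg lost. Kcnk6, Kcnk13 and Kcnd1 kept their calls under all 19 alternatives.

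Of 7 genes listed for microglia, Kcna3 and Kcnk12 were tested and not called for myeloid cells, and Kcna5 had too few counts to test. Kcna3, a delayed rectifier of activated microglia, read 0.110, 1.67, 0.126, 0.315 and 0.0609 in non-Tg myeloid libraries and 0.777, 0.0815, 0.520, 2.21 and 0.637 in PS2APP ones. In neurons it stood at 1.11 ± 0.154. Kcnk12, the close relative of Kcnk13, stood at 0.286 ± 0.141 in myeloid cells and 0.378 ± 0.0884 in neurons. Kcna5 had at most 3 counts in any myeloid library. The list for vessel wall cells was near its floor, with Kcnj8, the pore of the pericyte ATP-sensitive channel, at 0 to 12 counts and Kcnmb1, a smooth muscle subunit, at 0 to 18 counts in any library. Kcnj11, the ATP-sensitive pore of neurons, was called for neurons at 1.04 ± 0.215.

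**Figure D3:**
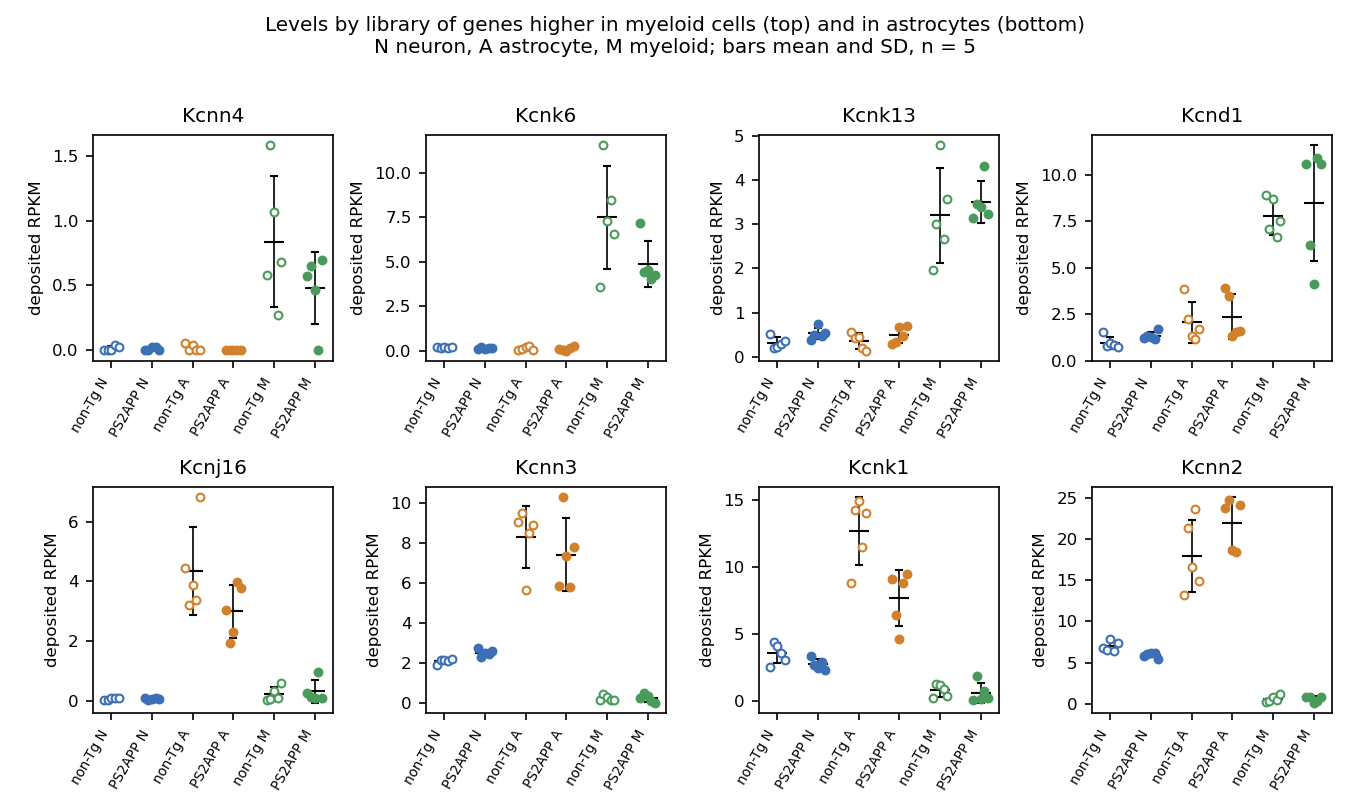
Deposited RPKM of 4 genes higher in myeloid cells (top) and 4 higher in astrocytes (bottom) in each library; open points are non-Tg, filled points PS2APP, and bars give mean and SD of 5 libraries. Kcnk6 and Kcnk13 in non-Tg myeloid libraries lie above every non-Tg library of the other populations, and Kcnn2 in astrocytes lies above the neuron libraries, which read 6.43 to 7.88 in non-Tg mice.

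Among auxiliary subunits, all 3 Kcnab genes, cytoplasmic partners of the Kcna channels, and 3 of 4 Kcnip genes were called higher in neurons. So were Kcnmb2 and Kcnmb4, which alter the gating of Kcnma1. Kcnip2 led them at 7.78 ± 0.499 RPKM in neurons, followed by Kcnip4 at 5.47 ± 0.802, a level above its 0.470 ± 0.121 in astrocytes. Kcne1l, a small single-pass subunit too sparse to test, stood at 0.454 ± 0.108 in non-Tg astrocytes, with 7 to 14 counts in each library, while 4 of 5 libraries held no count in each of the other non-Tg populations. The non-coding Kcnmb4os1 and Kcnmb4os2 share 43.1% and 34.2% of their exon bases with Kcnmb4 on the opposite strand. Whether counting used strand is not given in the sources used here, so their reads and those of Kcnmb4 cannot be told apart. The same holds for Kcnj13 with Gigyf2 (49.1%), Kcna6 with Gm26673 (39.6%) and Kcnj3 with Gm26794 (31.1%). Kcnj3, which pairs with Kcnj6 and Kcnj9 in G protein-gated channels, stood at 7.42 ± 3.19 in astrocytes and 6.92 ± 0.551 in neurons and was called for neither. Its astrocyte mean was raised by non-Tg replicate 1, at 13.0, while the other non-Tg astrocyte libraries read at most 7.01. Kcnj6 and Kcnj9 were at 0.222 ± 0.0930 and 0.468 ± 0.307 in the same astrocytes.

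The comparisons between populations were repeated in PS2APP libraries, which are other samples of the same cell types. There, 64 members had enough counts to test. Of these, 38 were called for neurons, 7 for astrocytes and 4 for myeloid cells (59.4%, 10.9% and 6.25%, against 17.9%, 11.6% and 17.7% of all genes). All of them were in the non-Tg sets, which held 44, 8 and 8. The 4 myeloid calls were Kcnk6, Kcnk13, Kcnd1 and Kcnj2. Of the 11 non-Tg calls that were not repeated, 6 had too few counts to test there, Kcnd3os, Kcns1, Kcns3 and Kcnu1 in the neuron set and Kcnk7 and Kcnn4 in the myeloid set. Kcnn4 read 0.571, 0.649, 0.460, 0 and 0.691 RPKM in PS2APP myeloid libraries.

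The second comparison asked which members differ between PS2APP and non-Tg mice within a population. None did at an adjusted p of 0.05 in edgeR's quasi-likelihood test. In neurons, 0 of 73 tested members were higher (0.0% of all genes) and 0 lower (0.00623%). In astrocytes, 0 of 48 were higher (0.185%) and 0 lower (0.0%). In myeloid cells, 0 of 39 were higher (1.86%) and 0 lower (1.5%). At an unadjusted p under 0.05 there were 14, 11 and 5 members, or 19.2%, 22.9% and 12.8%, against 22.9%, 17.2% and 19.3% of all genes. In myeloid cells 3.36% of all genes passed in either direction. DESeq2 called 1 member in neurons (Kcnt2, against 0.89% of all genes), 1 in astrocytes (against 2.33%) and 0 in myeloid cells (against 7.23%). The median log2 difference of the tested members was 0.06 in neurons, -0.15 in astrocytes and 0.18 in myeloid cells, beside -0.02, 0.01 and -0.002 for all genes. Members that fell short of a minimum level in a population are not in these counts. All 73 tested in neurons lay within 2-fold of no difference, as did 43 of 48 in astrocytes and 35 of 39 in myeloid cells. The median SE was 0.19, 0.40 and 0.51, so differences in glia were measured less precisely. Given below are members of smallest p, as values that did not pass.

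**Figure D4:**
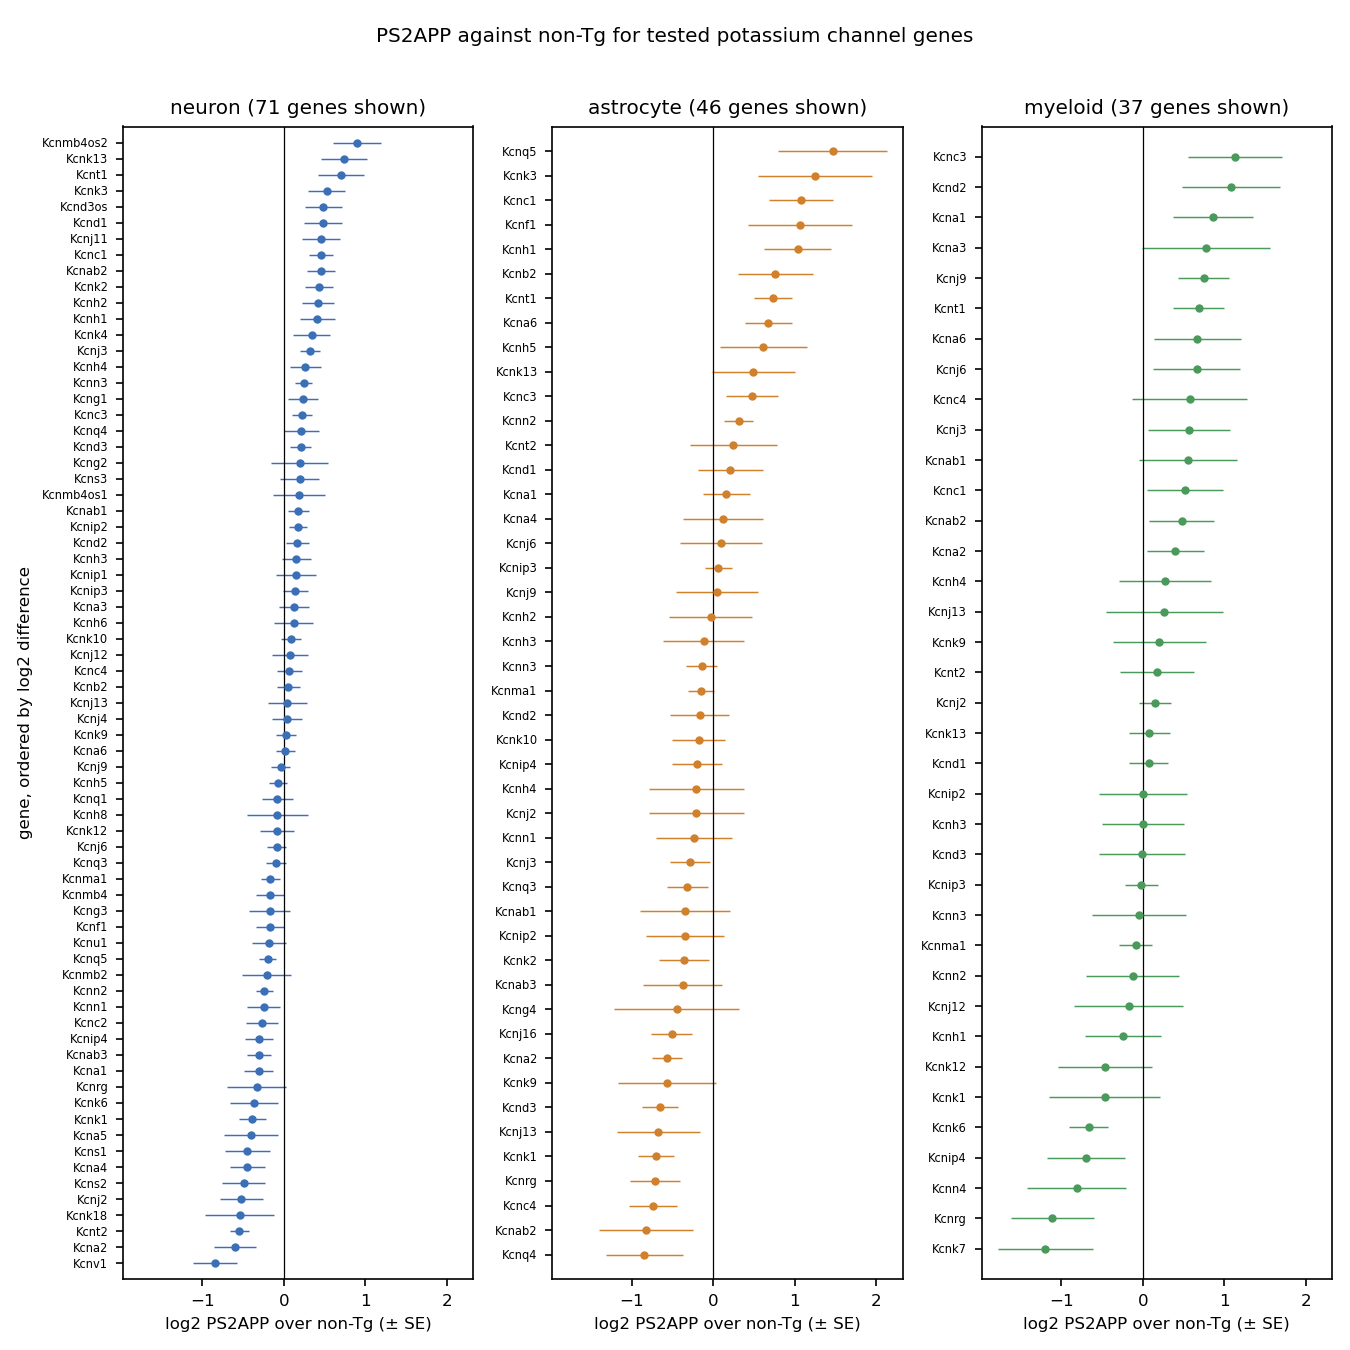
Log2 difference of PS2APP over non-Tg with its SE for tested members, ordered by size, in neurons (71 genes shown), astrocytes (46) and myeloid cells (37), from edgeR with 5 libraries per group. Points lie on both sides of 0 in each panel, error bars are shortest in neurons, and no gene passed an adjusted p of 0.05.

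In neurons, Kcnt2 (chromosome 1, 140245657 to 140614045) had the smallest p. It read 4.92, 4.49, 4.17, 4.21 and 4.06 RPKM in PS2APP libraries, each below all 5 non-Tg libraries, whose lowest was 5.15. The log2 difference was -0.55 ± 0.12 (SE, edgeR adjusted p = 0.186), with an adjusted p of 0.0017 in DESeq2. It lay between -0.61 and -0.47 under 16 alternatives. Kcnv1 read 1.96, 2.41, 1.26, 1.85 and 0.71 against 1.77 to 3.96 in non-Tg libraries, which overlap (log2 difference -0.84 ± 0.27, edgeR adjusted p = 0.186). Kcnc1, a fast delayed rectifier, read 4.74, 5.29, 5.68, 5.05 and 7.73, each above the non-Tg range of 3.84 to 4.68. Its difference was 0.45 ± 0.15 (edgeR adjusted p = 0.186). Kcnab2 (0.45 ± 0.17) and Kcnk13 (0.74 ± 0.28) and the non-coding Kcnmb4os2 (0.90 ± 0.30) were next, at adjusted p of 0.186 to 0.190 in edgeR. Kcnk13 was at 0.320 ± 0.132 and 0.532 ± 0.130 in these libraries, and microglial markers summed to 11.1 ± 1.97 and 13.4 ± 4.33 RPKM; their part was not tested.

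In astrocytes, Kcnk1 read 9.13, 6.41, 4.66, 8.84 and 9.48 RPKM in PS2APP libraries against 8.83, 14.3, 14.9, 11.5 and 14 in non-Tg libraries, and only non-Tg replicate 1 lay within the PS2APP range (log2 difference -0.70 ± 0.22, SE, edgeR adjusted p = 0.157). Kcna2 stood at 5.08 ± 0.950 against 7.63 ± 1.71 (-0.57 ± 0.18) and Kcnd3, an A-type subunit, at 1.43 ± 0.358 against 2.28 ± 0.461 (-0.65 ± 0.22), with edgeR adjusted p of 0.159 and 0.172. Kcnc1 stood at 0.804 ± 0.548 against 0.386 ± 0.127 (1.08 ± 0.39, edgeR adjusted p = 0.188), and at 0.59 without PS2APP astrocyte replicate 3. All 4 genes listed for astrocyte conductance, Kcnj16, Kcnk1, Kcnk2 and Kcnk10, had negative differences, with a median of -0.43 and none past the threshold. For Kcnk2, non-Tg replicate 1 read 7.67 RPKM. The other non-Tg libraries, at 2.18 to 3.24, lay within the PS2APP range of 2.05 to 3.61.

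Other measures moved with these astrocyte values. Summed neuron markers were 53.0, 60.5, 145, 59.2 and 67.9 RPKM in PS2APP astrocyte libraries and 40.6 to 59.9 in non-Tg ones. Astrocyte markers summed to 624 ± 104 in non-Tg and 536 ± 39.4 in PS2APP astrocyte libraries, with 8 of 12 differences negative (median -0.28) and none past the threshold. Microglial markers summed to 9.20 ± 1.84 and 19.0 ± 5.05, with 8 of 9 tested positive and Csf1r and Fcrls called higher. Oligodendrocyte markers summed to 70.7 ± 11.8 and 101 ± 24.8, with 9 of 10 positive and none called. The part of these cells in the values was not tested. Adding a summed score of other cells' markers as a covariate gave -0.44 for Kcnk1 and 0.57 for Kcnc1. Mitochondrial genes took 4.78% to 6.56% of the counts of PS2APP and 2.06% to 3.59% of those of non-Tg astrocyte libraries, with no overlap. With that share as a covariate the sign turned for Kcnk1, Kcnt1, Kcna2 and Kcnc1, and the share and the genotype cannot be told apart.

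In myeloid cells, Kcnk6 had the smallest p. It read 7.19, 4.43, 4.56, 4.02 and 4.27 RPKM in PS2APP libraries and 3.56, 11.6, 7.28, 8.50 and 6.59 in non-Tg libraries. PS2APP replicate 1 was the high library of its group and non-Tg replicate 1 the low one, and the groups overlap through them. The log2 difference was -0.66 ± 0.24 (SE, edgeR adjusted p = 0.129). Without non-Tg myeloid replicate 1 it was -0.83 and passed (edgeR adjusted p = 0.0250), and without a filter on low counts it was -0.72 (0.0214). Without non-Tg myeloid replicate 2 it was -0.46, and adjusted for the share of mitochondrial counts it was -0.31 (edgeR adjusted p = 0.662). That share was 7.42% to 13.8% in PS2APP and 4.81% to 11.5% in non-Tg myeloid libraries. PS2APP myeloid libraries were also shallower, at 2015535 to 2908222 counts against 3578249 to 6143018. Of 12 microglial markers, Cx3cr1 and Tmem119 were called lower and none higher. The part of these measures in the Kcnk6 value was not tested beyond the covariate. The other myeloid-enriched tandem-pore channel, Kcnk13, stood at 3.20 ± 1.07 in non-Tg and 3.51 ± 0.474 in PS2APP libraries, and Kcnd1 at 7.78 ± 0.992 and 8.50 ± 3.12. Kcnk7 (0.722 ± 0.467 and 0.318 ± 0.144) and Kcnrg (5.91 ± 1.91 and 2.81 ± 2.58) had log2 differences of -1.20 ± 0.58 and -1.11 ± 0.51 with edgeR adjusted p of 0.263 and 0.231. Kcnrg was at 0.216 and 0.373 in PS2APP myeloid replicates 4 and 5 and between 3.35 and 6.39 in the other 3.

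Kcnj9 and Kcnt1, which were at 6.75 ± 0.547 and 18.8 ± 6.37 RPKM in non-Tg neurons, had positive differences in myeloid cells. Kcnj9 stood at 1.68 ± 0.722 and 2.95 ± 0.883 in non-Tg and PS2APP myeloid libraries (0.75 ± 0.31, edgeR adjusted p = 0.180). Neuron markers summed to 18.6 ± 4.09 and 30.6 ± 8.59 RPKM in the same libraries, and 11 of 12 tested had a positive log2 difference. With other cells' markers as a covariate the value was 0.68 for Kcnj9.

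Kcnt1 (chromosome 2, 25863791 to 25918273) was among the smallest p in both glial populations, and its neuron value was added after it was seen. It was 0.70 ± 0.28 in neurons, 0.73 ± 0.23 in astrocytes and 0.69 ± 0.31 in myeloid cells (log2, SE, edgeR adjusted p = 0.191, 0.158 and 0.228). PS2APP libraries read 20.3, 24.0, 31.6, 24.7 and 52.2 RPKM in neurons, with replicate 5 above the rest and the lowest within the non-Tg range. They read 14.3, 25.9, 35.2, 14.8 and 18.4 in astrocytes and 1.86, 2.12, 1.14, 1.14 and 1.41 in myeloid cells. The groups overlap in each population. Without PS2APP neuron replicate 5 the neuron value was 0.41, and without PS2APP astrocyte replicate 3 the astrocyte value was 0.47. With other cells' markers as a covariate the Kcnt1 values were 0.37 in neurons, 0.41 in astrocytes and 0.75 in myeloid cells. With the mitochondrial share as a covariate the Kcnt1 values were 0.78, -0.63 and 0.75 in the same order. Its relative Kcnt2 stood at -0.55 ± 0.12 in neurons and 0.25 ± 0.54 in astrocytes.

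**Figure D5:**
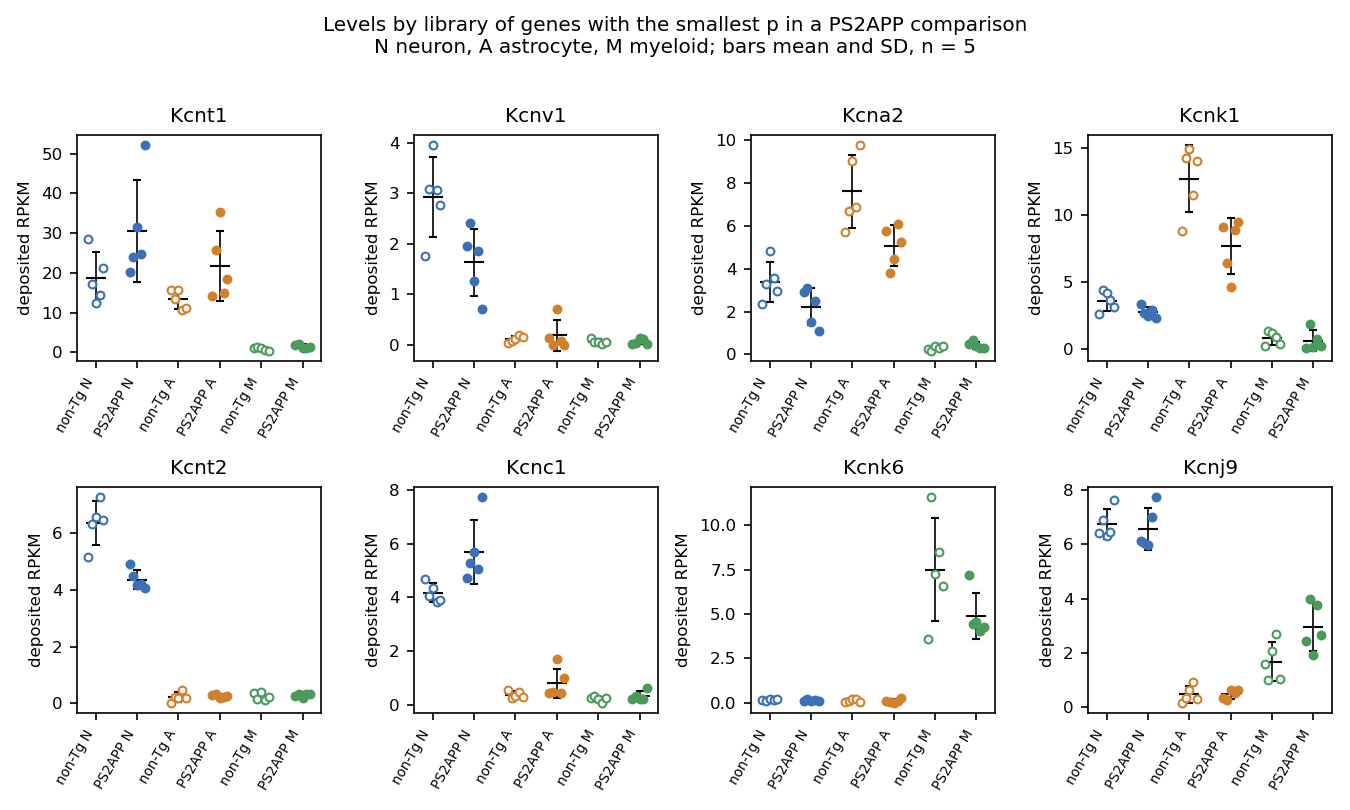
Deposited RPKM in each library for 8 genes that were among the smallest p of a PS2APP comparison in 1 or more populations, with open points for non-Tg, filled points for PS2APP, and bars for mean and SD of 5 libraries. Kcnt2 in neurons separates the groups, with PS2APP at 4.06 to 4.92 and non-Tg at 5.15 to 7.28, while Kcnk6 in myeloid cells overlaps.

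Whether the PS2APP difference itself depended on the population was tested in 1 fit of all 30 libraries with 75 members. None differed between myeloid cells and astrocytes (0.757% of all genes did), between myeloid cells and neurons (0.105%) or between astrocytes and neurons (0.0331%) in edgeR. At an unadjusted p under 0.05 there were 14, 6 and 3 members (18.7%, 8.0% and 4.0%, against 13.0%, 9.65% and 4.97% of all genes). DESeq2 called 1, 0 and 0, against 2.11%, 0.47% and 0.0884%. Kcnn1, a small-conductance calcium-activated channel and the gene DESeq2 called, had 0 to 6 counts in non-Tg and 1 to 23 counts in PS2APP myeloid libraries. Its log2 difference between myeloid and astrocyte effects was 2.91 ± 0.87 (edgeR adjusted p = 0.109), and 1.56 without PS2APP myeloid replicate 5, which held 23 counts. Kcnf1, a silent subunit, had a difference of -2.40 ± 0.77 in the same contrast (edgeR adjusted p = 0.137). Kcnq5 had 1.61 ± 0.63 between astrocytes and neurons (edgeR adjusted p = 0.885), and 0.20 without PS2APP astrocyte replicate 3, whose 1.90 RPKM lay far above the 0.158 to 0.276 of the other 4. Kcna2, with 0.92 ± 0.36 between myeloid cells and neurons, and Kcnd3, with -0.88 ± 0.41 between astrocytes and neurons, had edgeR adjusted p of 0.390 and 0.995.

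Genes whose products work with these channels were compared in the same way between the non-Tg populations. Of 7 tested membrane partners, 5 were called for neurons (20.6% of all genes were), among them Dpp6 and Dpp10, which bind Kcnd channels. Another 1 was called for astrocytes (13.6%), Abcc9, the sulfonylurea receptor that pairs with Kcnj8. Abcc9 stood at 0.34 ± 0.066 RPKM in non-Tg astrocyte libraries and is also 1 of the 9 listed markers of vessel wall cells. Those markers summed to 12.9 ± 1.65 RPKM in non-Tg astrocyte, 1.8 ± 0.25 in neuron and 3.0 ± 1.1 in myeloid libraries. The part of vessel wall cells in the Abcc9 value was not tested. All 4 tested genes of the pacemaker channel list were called for neurons, among them Hcn2, Hcn3 and their partner Pex5l. Scaffold genes, 11 tested, gave 5 calls for neurons, 1 for astrocytes and 0 for myeloid cells. Pump and cotransporter genes, 11 tested, gave 4, 3 and 2, beside 20.6%, 13.6% and 21.5% of all genes. Between PS2APP and non-Tg, no tested membrane partner, scaffold or HCN gene passed the threshold in any population. Among pump and cotransporter genes in myeloid cells, Slc12a2, a sodium-potassium-chloride cotransporter, fell from 1.61 ± 0.121 to 0.843 ± 0.275 RPKM (log2 difference -0.98 ± 0.27, edgeR adjusted p = 0.0467).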

How the data were processed

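Each of the 30 libraries came with 1 deposited table. Per the file headers, it gives a raw count of uniquely aligned reads per gene model and an RPKM adjusted by a size factor. The submitters' processing notes name GSNAP and GRCm38, and no source used here states versions, annotation or strand setting. Genes with close copies lose reads under unique alignment. Symbols were taken from the GRCm38.p6 RefSeq table (31049 of 36528 identifiers, 96.7% of counts).

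Tests used the deposited counts in edgeR 4.0.16 under R 4.3.3 (quasi-likelihood, TMM, filterByExpr), with Benjamini-Hochberg adjustment over all genes and a threshold of 0.05. Each population was fitted on its own, the 15 non-Tg libraries gave the contrasts between populations, and all 30 gave differences of effects. DESeq2 1.42.0, another scaling, no filter, covariates and left-out libraries were alternatives. Deposited RPKM, used for levels only, equalled the counts times 1 factor per library over gene length. Replicates differed by more than sampling noise (chi-square per degree of freedom at least 3.71). The scripts were tested on simulated PS2APP comparisons. Changes of 2-fold were recovered for 59 of 95 genes in neuron, 35 of 96 in astrocyte and 30 of 93 in myeloid libraries. Changes of 4-fold were recovered for 90 of 91, 73 of 88 and 80 of 91, with 5, 3 and 4 false calls. A 2-fold difference in glia could thus often be missed.

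The members and lists were chosen with earlier results of these data known. Named per population were the 5 pore-forming genes of highest level, the 6 largest differences between populations and the 6 smallest p for PS2APP. The 2 smallest p per difference of effects, members of fixed lists and partner genes past the threshold were added. Other genes are named to fill out a subfamily and were chosen after their values were seen. Results for some genes are not reported here.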

Additional observations from a re-analysis of the deposited data

Results flagged for a closer look

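The levels of the 40 genes named by rule were examined within groups of 5 libraries, and other members were not. In 38 of 239 such groups, 1 library lay far from the other 4, by Dixon's test at 0.71 of the range. Chance gives about 1 in 20 for normally distributed values. That rate does not apply to 8 of the 38, where the other 4 libraries were at 0 and any count meets the criterion. All values are RPKM and no cause was tested. PS2APP myeloid replicate 4 was high for Kcnj16 (0.983), Kcnj8 (0.920), Kcnk12 (0.598), Kcnk13 (4.32) and Kcnq3 (1.93, next 0.335). PS2APP myeloid replicate 5 was high for Kcnc1 (0.646), Kcnd3 (0.897), Kcnn1 (0.532) and Kcna5 (0.114, from 3 counts). Other PS2APP myeloid libraries gave Kcna4 0.403 in replicate 2, Kcnk6 7.19 in replicate 1, and, from 1 count each in replicate 3, Kcnj11 0.0336 and Kcns3 0.0369.

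Among non-Tg myeloid libraries, replicate 2 was high for Kcna3 (1.67), Kcnj12 (2.51), Kcnj8 (0.192), Kcnn1 (0.0604) and Kcnmb4os2 (0.0245, from 1 count). Kcnk7 stood at 1.53 and Kcna5 at 0.0239 in replicate 1, Kcns3 at 0.0268 in replicate 3 and Kcna4 at 0.269 in replicate 5.

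Non-Tg astrocyte replicate 1 was high for Kcnab2 (3.03, next 0.520), Kcnj11 (0.334), Kcnj12 (0.115), Kcnk2 (7.67) and Kcnq5 (0.465), and replicate 3 was low for Kcnn3 (5.65). PS2APP astrocyte replicate 3, which also had the highest neuron marker sum, was high for Kcnmb4os2 (0.624), Kcnq5 (1.90) and Kcnv1 (0.713). Kcna5 stood at 0.286 in PS2APP astrocyte replicate 5.

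In neurons, non-Tg replicate 1 was low for Kcnd3 (3.11), replicate 4 was low for Kcnj11 (0.667) and high for Kcnq5 (3.59), and replicate 3 was high for Kcnma1 (15.8). Kcnd1 stood at 1.71 in PS2APP replicate 5, and Kcnj8 at 0.0175 in PS2APP replicate 4, from 1 count.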

How the results depend on the processing

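For PS2APP against non-Tg, DESeq2 called 1 member lower in neurons (Kcnt2) and 1 higher in astrocytes. Without a filter on low counts there were 2 higher in astrocytes (Kcnt1 among them, against 1.29% of all genes) and 3 lower in myeloid cells (Kcnk5, Kcnk6, Kcnrg, against 1.5%). Kcnk5 was at 0 in every PS2APP myeloid library. It read 0.520 RPKM in non-Tg myeloid replicate 2 and at most 0.0633 in the other non-Tg myeloid libraries. In 1 fit of all 30 libraries there was 1 higher in astrocytes (1.36% of all genes) and 1 higher in myeloid cells (Kcnn1, 1.71%). Leaving out single libraries gave 0 to 1 lower in myeloid cells, with Kcnk6 called without non-Tg myeloid replicate 1. DESeq2 called 1 difference of effects, Kcnn1 between myeloid cells and astrocytes. The causes were not tested. Of the 8 myeloid calls between populations, PS2APP libraries gave 4, with 2 of the other 4 not testable there, and leaving out single non-Tg libraries gave 5 to 8. The other counts stayed within 1.5 times, with 38 to 46 for neurons and 6 to 11 for astrocytes. With the mitochondrial share as a covariate the astrocyte values turned to 0.28 for Kcnk1, -0.63 for Kcnt1, 0.18 for Kcna2 and -0.88 for Kcnc1. Kcnj12 lay between -0.19 and 1.75 over left-out libraries. Of values for single genes under an alternative, 1511 kept direction and side of the threshold, 6 passed it, 40 lost it and 5 turned. Relative log expression factors moved the median of all genes by over 0.1 for the myeloid effect minus that of astrocytes (-0.11 to 0.02) and of neurons (-0.15 to -0.01). Myeloid libraries held the fewest member counts. No paired analysis was possible because the labels give libraries no replicate number or animal, and the numbers used here were assigned for naming only.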
